A study of Bos taurus with 15 samples.

Results

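Bovine oocytes that had been vitrified in liquid nitrogen, at a cryoprotective agent concentration of 6.6 M, were compared gene by gene with fresh oocytes in RNA sequencing libraries. The members were chosen by the treatment label alone: 3 nitrogen 6.6 M libraries and 3 fresh libraries, 6 of the 15 libraries of the series, with all genes of the table. Of the 24616 genes in the table, 8441 had enough counts to be tested. Vitrification combines a high cryoprotectant concentration with very fast cooling, so that water in and around the cells sets as a glass and forms no ice.

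The series (Bos taurus) held 5 groups of 3 libraries: fresh oocytes, and oocytes vitrified in liquid helium or liquid nitrogen with cryoprotective agent at 5.6 or 6.6 M. The agent is not named in the labels, no warming step or culture after warming is described, and no genotype, breed or age is given. All groups, the fresh controls included, were oocytes from ovaries that spent 22 to 24 h in maturation medium at 38.5 °C, made of TCM-199 with serum, LH, FSH, cysteine and follicular fluid. All were then stripped of cumulus cells with hyaluronidase and washed. The sample labels therefore describe matured oocytes, whereas the series title calls them immature. Extracts were described as coming from single cells and were amplified with a SMARTer kit for very small RNA inputs. The labels do not say how many oocytes went into a library or whether libraries came from separate animals or cultures. The p-values therefore reflect the scatter among these libraries alone, and that scatter may be technical.

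A fully grown oocyte makes almost no new RNA, and meiosis, fertilisation and the first cleavages run on messages that it stored while growing. Those messages are kept with short poly(A) tails, lengthened when translation is wanted and degraded in waves during maturation. Poly(A)-primed libraries see the length of the tail as well as the amount of the message. Since the number of oocytes in an extract is not given, fewer cells and less RNA per cell cannot be told apart.

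Total counts were 1601519, 1644690 and 2822837 in fresh libraries 1 to 3 and 1987931, 2613014 and 7392972 in nitrogen 6.6 M libraries 1 to 3. Nitrogen 6.6 M library 3 stood apart in depth, and the passing genes, the mitochondrial lists and the sets of short and long genes are given with and without it. Across genes, log2 CPM values (counts scaled to a common library total, by TMM) correlated at 0.929 to 0.952 between fresh libraries, 0.954 to 0.975 between nitrogen 6.6 M libraries and 0.929 to 0.972 between the groups. Genes are not independent replicates, so these values only describe the libraries. All 10 oocyte markers found in the table, among them ZP2, GDF9 and BMP15, were measured, with summed levels of 3277 to 6183 FPKM (counts relative to gene length and library total) in fresh and 4100 to 5110 in nitrogen 6.6 M libraries. Of 27 cumulus and granulosa markers in the table, 8 were at 0 in all 6 libraries, FSHR, CYP11A1, AMH, FOXL2 and NR5A1 among them. Their summed level was 137 to 199 FPKM in fresh and 137 to 151 in nitrogen 6.6 M libraries, led by STAR, HAS2 and PTGS2. Of the 10 that could be tested, SERPINE2 (log2 fold change 0.86) and PTX3 (-2.40) had an unadjusted p under 0.05 between the groups and none passed adjustment. Of 20 blood and immune markers, 12 were at 0 in all 6 libraries, and the sums were 5.83 to 10.7 FPKM in fresh and 5.15 to 11.3 in nitrogen 6.6 M libraries. Of 12 theca, stromal and endothelial markers, 6 were at 0 in all 6 libraries, with sums of 4.44 to 7.96 and 5.61 to 8.69 FPKM. FPKM values are not scaled by TMM. The TMM factors, by which scaled levels are divided, were 0.938, 1.22 and 0.843 in fresh libraries 1 to 3. In nitrogen 6.6 M libraries 1 to 3 they were 0.993, 0.945 and 0.973. Overlap or separation given in FPKM can therefore differ on the TMM scale of the fold changes.

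Vitrification in nitrogen at 6.6 M was set against fresh oocytes to ask which transcripts differed in level after this treatment. After adjustment no gene passed as lower, and 4 genes passed as higher. They were SNRPC and CWC15, which encode parts of the splicing machinery, SEC61G, a subunit of the channel that takes new proteins into the endoplasmic reticulum, and SLC7A3, a carrier of cationic amino acids. These 4 of 8441 genes (0.0474%) passed at 0.05 in edgeR's quasi-likelihood test, adjusted over all genes tested by the Benjamini-Hochberg method. At an unadjusted p under 0.05 there were 695 genes (8.23%), 394 higher (4.67%) and 301 lower (3.57%). The log2 fold change was above 0 in 3938 of 8441 genes (46.7%), with a median of -0.03. Complete separation of the libraries, with all 3 nitrogen 6.6 M libraries above all 3 fresh ones in FPKM, was seen in 362 genes (4.29%), and the reverse in 345 (4.09%).

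**Figure D1:**
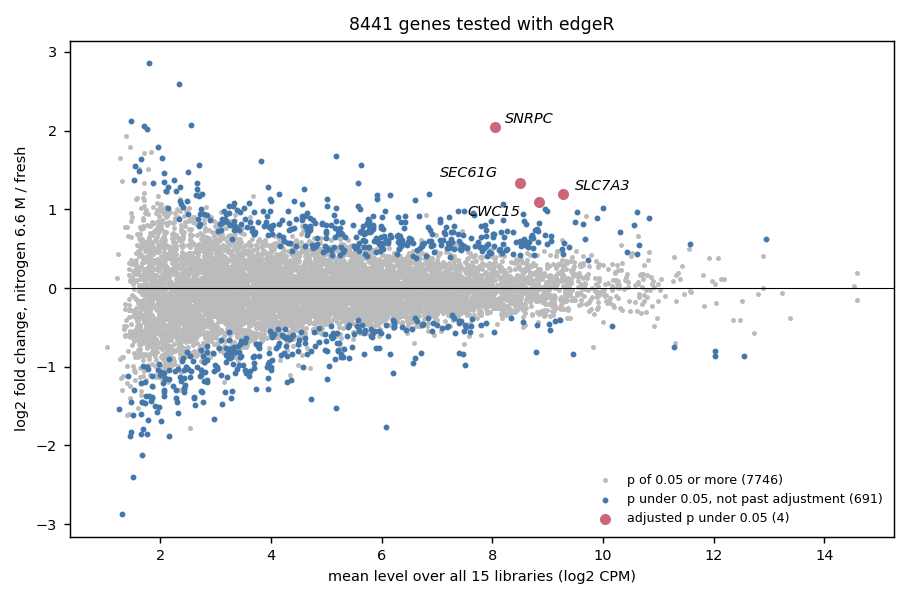
Log2 fold change of nitrogen 6.6 M over fresh oocytes (y axis) against the mean level over all 15 libraries (x axis, log2 CPM), with each of 8441 tested genes as a point. The 4 genes that passed after adjustment (red) all lie above 0, and 691 more genes have an unadjusted p under 0.05 (blue).

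SNRPC is the C protein of the U1 particle, which recognises the start of an intron for splicing. Its level was 76.3, 125 and 111 FPKM in fresh libraries 1 to 3 and 468, 362 and 444 FPKM in nitrogen 6.6 M libraries 1 to 3. The groups lay far apart, and the lowest vitrified library was well above the highest fresh one. The means were 104 ± 25.1 and 425 ± 55.2 FPKM (SD, n = 3 each). The fitted log2 fold change on TMM-scaled counts was 2.05 (SE 0.21, edgeR adjusted p = 5.32e-05), a 4.13-fold difference. On UMD3.1, SNRPC (ENSBTAG00000024549) lies at 8726525 to 8737237 of chromosome 23. Raw counts ran from 92 to 235 in fresh and from 700 to 2470 in nitrogen 6.6 M libraries, so counting error is small beside the difference.

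CWC15, a protein of the activated spliceosome, stood at 207, 224 and 206 FPKM in fresh and at 388, 443 and 511 FPKM in nitrogen 6.6 M libraries. Fresh libraries were nearly equal, and every vitrified library was higher. The means were 212 ± 9.80 and 447 ± 61.5 FPKM (SD, n = 3 each), and the log2 fold change was 1.09 (SE 0.19, edgeR adjusted p = 0.0354). CWC15 (ENSBTAG00000007913) spans 15705460 to 15713952 on chromosome 15 of UMD3.1.

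SEC61G showed 525, 448 and 476 FPKM in fresh and 1032, 981 and 1643 FPKM in nitrogen 6.6 M libraries. All vitrified libraries were above all fresh ones, and library 3, the deepest, was the highest. Means of 483 ± 39.0 and 1219 ± 369 FPKM (SD, n = 3 each) gave a log2 fold change of 1.34 (SE 0.23, edgeR adjusted p = 0.0354). SEC61G (ENSBTAG00000014971) spans 1445067 to 1451951 on chromosome 22 of UMD3.1.

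SLC7A3 stood at 95.4, 195 and 125 FPKM in fresh and at 324, 263 and 325 FPKM in nitrogen 6.6 M libraries. Fresh library 2 came nearest to the vitrified libraries and still lay below them. The means were 138 ± 51.0 and 304 ± 35.7 FPKM (SD, n = 3 each), and the log2 fold change was 1.20 (SE 0.21, edgeR adjusted p = 0.0354). SLC7A3 (ENSBTAG00000007403) spans 85010185 to 85015644 on chromosome X of UMD3.1.

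The call for SNRPC held when any of the 6 libraries was left out, with a log2 fold change of 1.90 to 2.22. The other 3 calls did not. Without nitrogen 6.6 M library 3, edgeR's adjusted p was 0.172 for SEC61G (log2 fold change 1.06), 0.142 for SLC7A3 (1.14) and 0.172 for CWC15 (0.99). Without fresh library 1 it was 0.0705 for SEC61G (1.43), 0.170 for SLC7A3 (1.02) and 0.112 for CWC15 (1.11) by edgeR. SEC61G and CWC15 did not pass without fresh library 2 (edgeR adjusted p = 0.0967 each), SLC7A3 not without nitrogen 6.6 M library 1 (0.0866) or library 2 (0.0624), and CWC15 not without library 2 (0.152). Over all 15 alternatives the direction of the 4 genes never changed, and edgeR or DESeq2 adjusted p-values ran up to 0.0765 for SNRPC, 0.915 for SEC61G and SLC7A3 and 0.952 for CWC15.

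**Figure D2:**
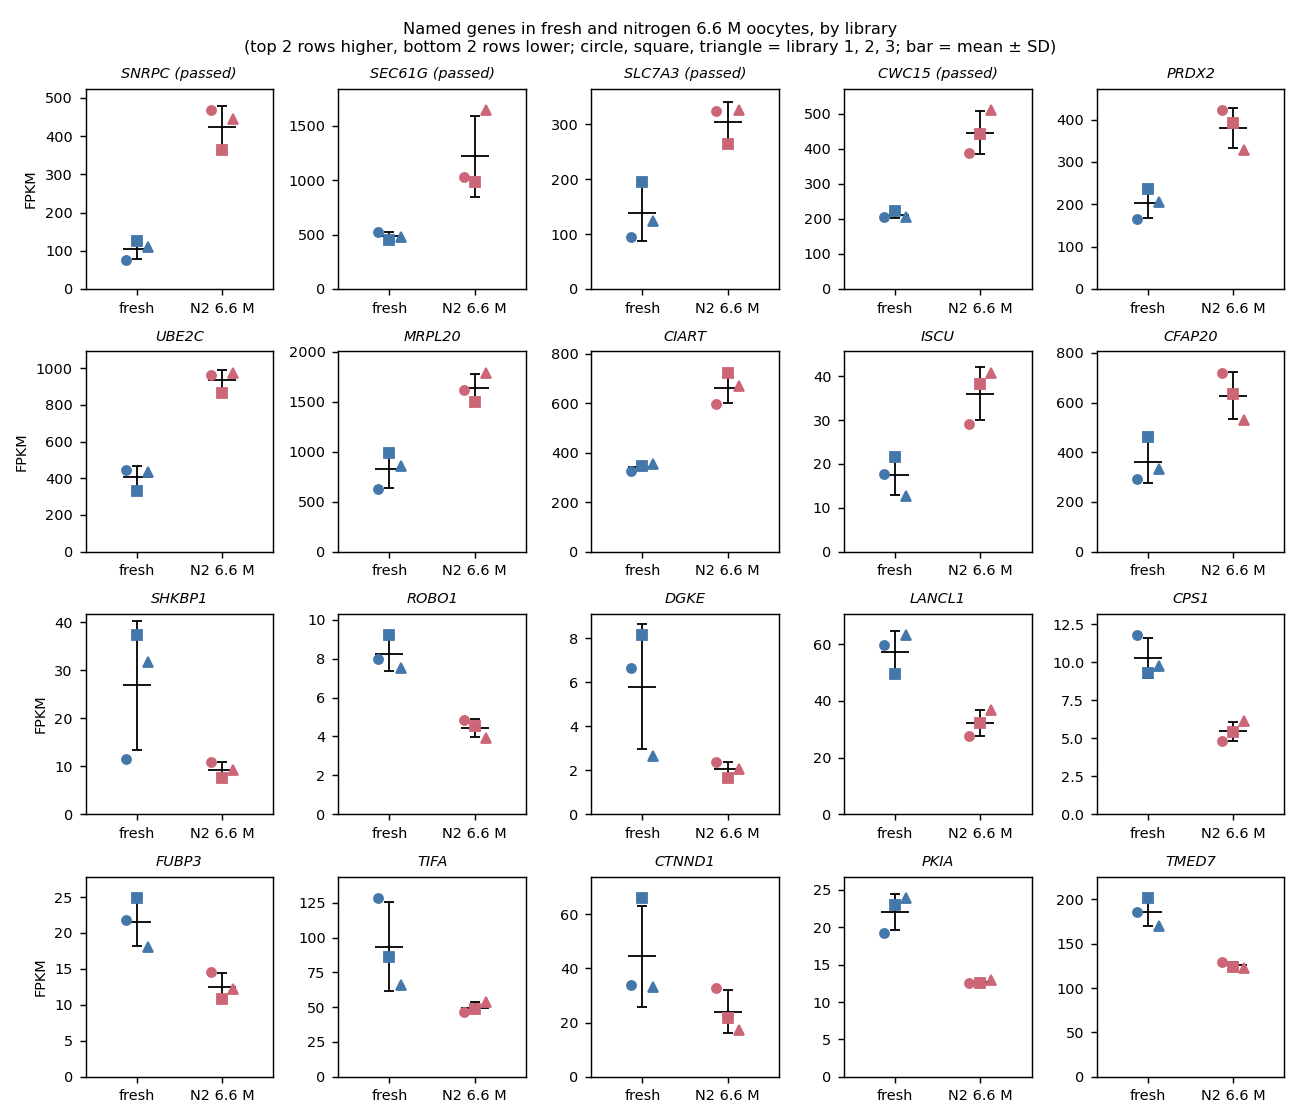
FPKM (y axes, from 0) of 20 named genes in the 3 fresh and 3 nitrogen 6.6 M libraries (symbols), with mean and SD (bars); panel titles mark the 4 genes that passed the adjusted test. SNRPC has the widest relative gap, from 76.3 to 125 FPKM in fresh to 362 to 468 FPKM in vitrified libraries.

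Below the threshold, 6 further genes had the smallest p among higher genes whose libraries did not overlap, a separation that the naming rule required. PRDX2, an enzyme that reduces peroxides, was at 165, 236 and 205 FPKM in fresh and at 422, 391 and 329 FPKM in nitrogen 6.6 M libraries. UBE2C, the ubiquitin-conjugating enzyme that works with the anaphase-promoting complex, was at 446, 332 and 436 FPKM and at 960, 866 and 974 FPKM. Both missed the threshold narrowly, with log2 fold changes of 0.94 and 1.19 and an edgeR adjusted p of 0.0529. MRPL20, a protein of the large mitochondrial ribosomal subunit, was at 627, 987 and 854 FPKM against 1620, 1497 and 1790 FPKM. CIART, a repressor of circadian clock transcription, was at 327, 344 and 353 FPKM against 597, 722 and 667 FPKM. Fresh libraries of CIART were close together, and all vitrified ones stood well above them. ISCU, the scaffold on which iron-sulfur clusters are built, was at 17.8, 21.7 and 12.6 FPKM against 29.2, 38.2 and 40.8 FPKM. CFAP20, a protein of cilia and flagella, was at 293, 461 and 333 FPKM against 720, 633 and 530 FPKM. The log2 fold changes of MRPL20, CIART, ISCU and CFAP20 were 1.02, 0.97, 1.13 and 0.83, each with an edgeR adjusted p of 0.0709. Without fresh library 3, PRDX2 (log2 fold change 1.06), UBE2C (1.34), MRPL20 (1.17) and CIART (1.10) passed, each with an edgeR adjusted p of 0.0320. With all libraries thinned to the shallowest, PRDX2 (edgeR adjusted p = 0.0363) and UBE2C (0.0289) passed, and DESeq2 called all 6 genes. Of the 15 alternatives, PRDX2 and UBE2C passed in 4, MRPL20 and CIART in 3, ISCU in 2 and CFAP20 in 1. Their edgeR or DESeq2 adjusted p-values ran up to 0.915 for UBE2C, 0.998 for PRDX2 and CFAP20 and 0.999 for the others.

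With all libraries no gene passed as lower by edgeR, although 301 had an unadjusted p under 0.05 in that direction and DESeq2 called 7. SHKBP1 was at 11.6, 37.2 and 31.6 FPKM in fresh and at 10.9, 7.59 and 9.28 FPKM in nitrogen 6.6 M libraries. Fresh library 1 nearly touched the vitrified libraries, and the other 2 stood well above them (log2 fold change -1.52, edgeR adjusted p = 0.0709). Without fresh library 1 SHKBP1 passed (-1.85, edgeR adjusted p = 0.00254). ROBO1, a receptor for the guidance molecule SLIT, was at 7.97, 9.20 and 7.54 FPKM against 4.84, 4.52 and 3.94 FPKM. Its groups were narrow and apart (log2 fold change -0.88, edgeR adjusted p = 0.0738). DGKE, a diacylglycerol kinase, was at 6.63, 8.13 and 2.65 FPKM against 2.37, 1.66 and 2.08 FPKM, so its separation hung on a small gap at fresh library 3 (log2 fold change -1.40, edgeR adjusted p = 0.138). Without that library DGKE passed (-1.73, edgeR adjusted p = 0.0320). Of the 15 alternatives, SHKBP1 passed in 3 and DGKE in 2. The glutathione-binding LANCL1 was at 59.8, 49.4 and 63.1 FPKM against 27.6, 32.4 and 36.8 FPKM. CPS1, the entry enzyme of the urea cycle, was at 11.7, 9.28 and 9.75 FPKM against 4.82, 5.44 and 6.10 FPKM. In LANCL1 and CPS1 the fresh libraries were uniformly higher, and the edgeR adjusted p was 0.198 and 0.232. The single-strand DNA-binding protein gene FUBP3 was at 21.7, 24.9 and 18.1 FPKM against 14.6, 10.8 and 12.2 FPKM. The signalling adaptor gene TIFA was at 128, 86.3 and 65.7 FPKM against 46.7, 48.7 and 53.8 FPKM. TIFA varied widely among fresh libraries and little among vitrified ones. CTNND1, a catenin that holds cadherins at the membrane, was at 34.0, 66.0 and 33.3 FPKM against 32.7, 21.9 and 17.4 FPKM. PKIA, an inhibitor of protein kinase A, was at 19.3, 23.0 and 23.9 FPKM against 12.6, 12.6 and 13 FPKM. The cargo receptor gene TMED7 was at 185, 202 and 170 FPKM against 130, 124 and 123 FPKM. PKIA and TMED7 were tight within both groups, and CTNND1 nearly overlapped. Log2 fold changes of these last 7 genes ran from -0.54 for TMED7 to -0.89 for CPS1, with edgeR adjusted p-values of 0.198 to 0.241.

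None of the 10 most abundant transcripts of nitrogen 6.6 M oocytes passed the test against fresh ones. BTG4, an adaptor that directs maternal messages to deadenylation, led with 29279, 34809 and 30145 FPKM in nitrogen 6.6 M libraries against 27169, 17469 and 35623 FPKM in fresh ones. The groups overlapped fully (log2 fold change 0.19, SE 0.32). CKS1B, a small partner of cyclin-dependent kinases, followed with 22802, 21253 and 20106 FPKM against 14069, 11371 and 21622 FPKM. Its paralogue CKS2, the centriole protein gene CETN3, the actin-sequestering TMSB4X, CALM2 and YPEL5 were also among the 10, as were ATP6, COX3 and ND1 of the mitochondrial genome. Log2 fold changes of the 7 nuclear genes lay between -0.16 for CALM2 and 0.40 for CKS1B. CALM2 has 2 gene identifiers in the table, and reads of such near-identical copies could have been divided between them.

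Genes were then grouped by function in 24 lists, each described by its counts and median. Over all genes tested 4.67% were higher and 3.57% lower at an unadjusted p under 0.05, 46.7% were above 0 and the median was -0.03. Apart from the genes that passed and the most abundant ones, list members are named here after their values were seen. Members were not tested as lists. In 21 of the 24 lists no gene passed, and the share that passed over all genes was 0.0474%.

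**Figure D3:**
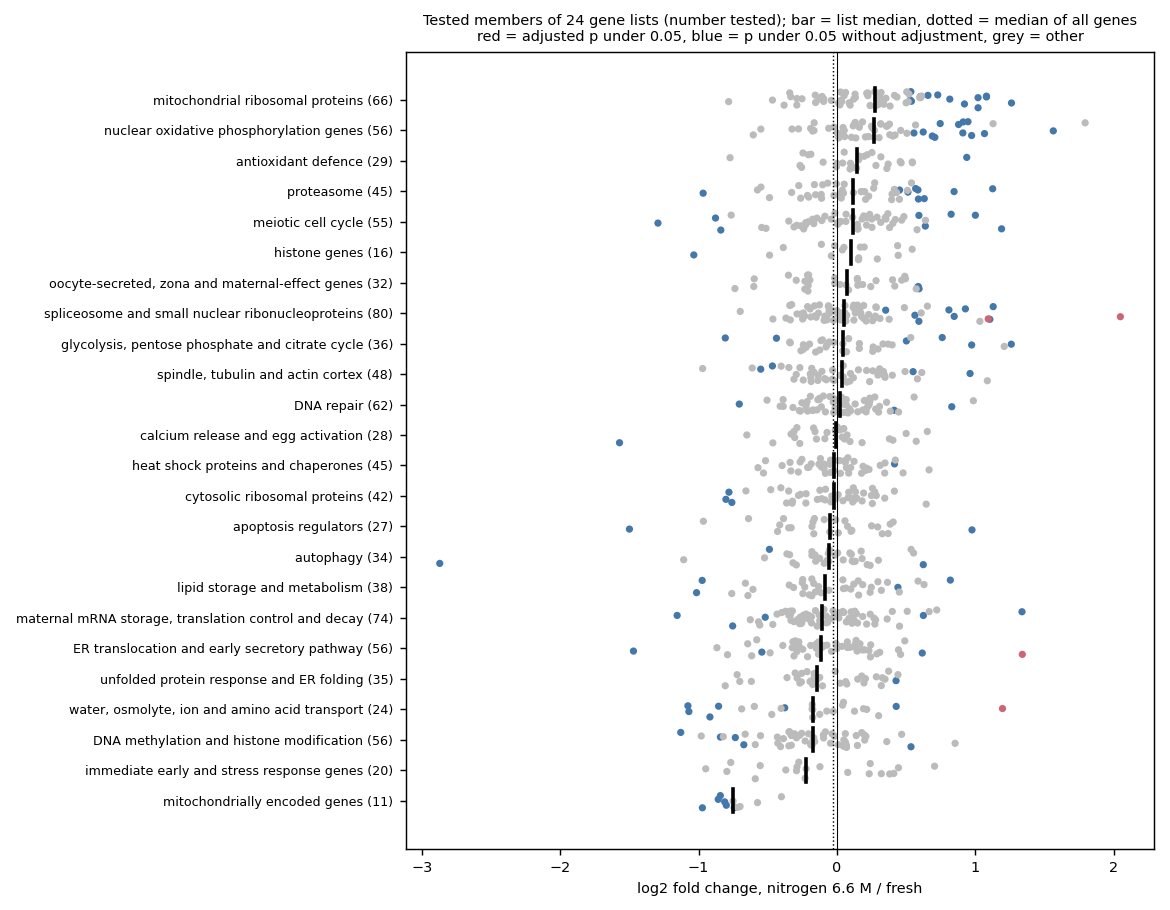
Log2 fold change of nitrogen 6.6 M over fresh oocytes (x axis) for the tested members of 24 gene lists (y axis, number tested in brackets), with list medians as bars and the median of all genes, -0.03, as a dotted line. Mitochondrially encoded genes have the lowest median (-0.75), and mitochondrial ribosomal proteins (0.27) and nuclear oxidative phosphorylation genes (0.26) the highest.

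All 11 tested genes of the mitochondrial genome had log2 fold changes below 0, with a median of -0.75, and 6 (54.5%, against 3.57% of all genes) were lower at an unadjusted p under 0.05. None passed after adjustment. Among nuclear oxidative phosphorylation genes 46 of 56 (82.1%) were above 0, with a median of 0.26, against 46.7% and -0.03 over all genes. Of these 12 (21.4%, against 4.67% of all genes) had an unadjusted p under 0.05 as higher and none as lower, and 10 of the 56 lay below 0. Mitochondrial ribosomal proteins, which translate the messages of the mitochondrial genome, were above 0 in 51 of 66 (77.3%), with a median of 0.27, and 13 (19.7%) had an unadjusted p under 0.05 as higher and none as lower. No gene of these 2 nuclear lists passed.

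Mitochondrially encoded messages varied most among the fresh libraries themselves. Summed over the list, they reached 72090, 25199 and 43630 FPKM in fresh and 36222, 35846 and 16887 FPKM in nitrogen 6.6 M libraries. Fresh library 1 was the highest and nitrogen 6.6 M library 3 the lowest, and fresh library 2 fell inside the range of the vitrified group. COX3, a subunit of cytochrome c oxidase, was at 15345, 6833 and 8905 FPKM against 7454, 7057 and 2896 FPKM (log2 fold change -0.86, SE 0.39). ND3, a subunit of complex I, was at 1630, 685 and 542 FPKM against 641, 539 and 281 FPKM (-0.97, SE 0.33, edgeR adjusted p = 0.373). ATP6 of the ATP synthase was at 20963, 2078 and 13835 FPKM against 10120, 10811 and 5384 FPKM (-0.57, SE 0.61). COX3, ND3 and ATP6 overlapped between the groups. COX1, another subunit of cytochrome c oxidase, was the only one of the 11 genes without overlap in FPKM. It was at 4530, 4179 and 4212 FPKM against 3798, 3884 and 2048 FPKM (-0.40, SE 0.26). Fresh library 2, the lowest fresh one for COX1, had the largest TMM factor of the 6 (1.22), so this gap belongs to FPKM only. Without fresh library 1 the median of the 11 genes was -0.27 with 1 gene above 0, and without nitrogen 6.6 M library 3 it was -0.47 with none above 0. Mitochondrial genes lie end to end, some overlapping, and have copies in the nuclear genome, so the division of reads between them is uncertain. Counts on all mitochondrial genes together took 8.66%, 4.14% and 5.12% of fresh and 4.92%, 4.57% and 2.41% of nitrogen 6.6 M libraries. The widest exact 95% Clopper-Pearson interval was that of fresh library 1, 8.62 to 8.70, and such intervals cover counting error only. The means were 5.97% ± 2.38 and 3.96% ± 1.36 (SD, n = 3 each), and the difference of -2.01 percentage points gave p = 0.4 in a two-sided exact permutation test, whose 20 splits allow no p below 0.1. It was -0.667 points without fresh library 1.

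Nuclear genes of oxidative phosphorylation summed to 8422, 8061 and 8557 FPKM in fresh and to 9136, 9821 and 11608 FPKM in nitrogen 6.6 M libraries. Mitochondrial ribosomal proteins summed to 5268, 6169 and 6053 FPKM in fresh and to 7399, 7579 and 9618 FPKM in nitrogen 6.6 M libraries. In both FPKM sums every vitrified library was above every fresh one, and nitrogen 6.6 M library 3 was the highest. FPKM is not scaled by TMM, whose factor was lowest in fresh library 3 (0.843). That library would therefore stand higher relative to the others on the TMM scale. Whether the sums separate on that scale was not tested. NDUFC1, a small subunit of complex I, was at 510, 329 and 491 FPKM against 820, 801 and 1208 FPKM (log2 fold change 1.06, edgeR adjusted p = 0.148). MRPS22 of the small mitochondrial subunit was at 49.7, 64.7 and 57.4 FPKM against 92.7, 105 and 122 FPKM (0.92, edgeR adjusted p = 0.180). Both genes were separate between the groups. ATP5J, the most abundant gene of the first list, was at 2099, 1154 and 1738 FPKM against 1787, 2168 and 2162 FPKM and overlapped. MRPL33, present under 2 gene identifiers, had log2 fold changes of 1.26 and 1.02, and its reads could have been divided between them. Without fresh library 3, 1 of the 2 passed (1.53, edgeR adjusted p = 0.0496). Without nitrogen 6.6 M library 3 the medians were 0.14, with 39 of 56 above 0, and 0.18, with 43 of 66 above 0.

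**Figure D4:**
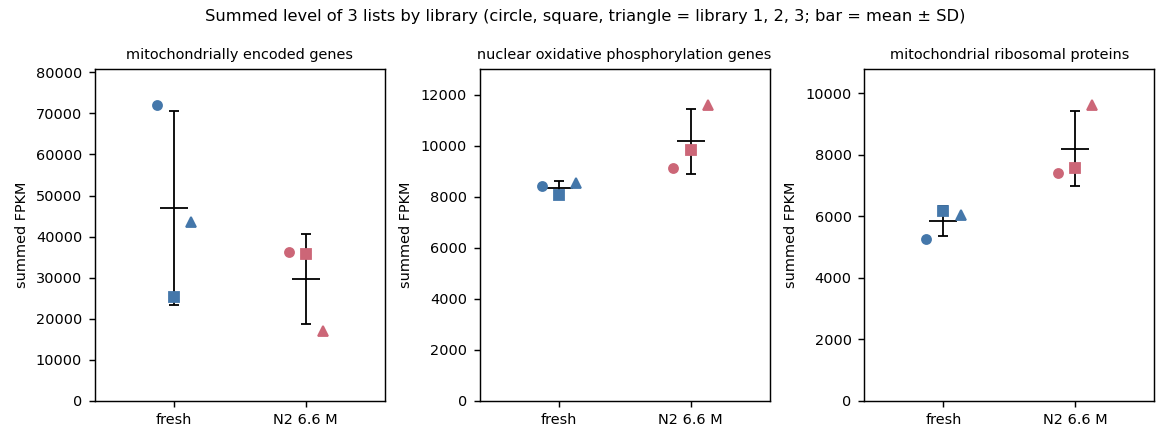
Summed FPKM (y axes, from 0) of 3 gene lists in the 3 fresh and 3 nitrogen 6.6 M libraries (symbols), with mean and SD (bars). Fresh library 1 sets the top of the mitochondrially encoded list at 72090 FPKM. In the other lists all vitrified libraries lie above all fresh ones in FPKM, which is not scaled by TMM.

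Gene length moved with these results. The median length was 709 bases for nuclear oxidative phosphorylation genes and 973 for mitochondrial ribosomal proteins, against 2041 over all genes tested. In the shortest sixth of genes (66 to 1030 bases) the median log2 fold change was 0.14, with 156 genes higher (11.1%) and 38 lower (2.70%) at an unadjusted p under 0.05. In the longest sixth (3691 to 103346 bases) it was -0.12, with 19 higher (1.35%) and 66 lower (4.69%). Without nitrogen 6.6 M library 3 the medians were 0.06 and -0.10, with 84 short genes higher (5.97%) and 36 long genes lower (2.56%). Without fresh library 3 they were 0.21 and -0.15, with 237 short genes higher (16.8%) and 118 long genes lower (8.39%). Without nitrogen 6.6 M library 1 the long genes that were lower numbered 149 (10.6%), and without library 2 they numbered 41 (2.91%). Relative to the mean of all 15 libraries, the shortest sixth stood at -0.19 in fresh library 1, -0.15 in fresh library 2 and 0.21 in nitrogen 6.6 M library 3 on the log2 scale, and at 0.02 to 0.05 in nitrogen 6.6 M libraries 1 and 2 and fresh library 3. So the slope with length was carried by 3 of the 6 libraries, in opposite directions in the groups. With each library's trend in length removed, the median was 0.13 with 38 of 56 above 0 for oxidative phosphorylation genes, and 0.14 with 46 of 66 above 0 for mitochondrial ribosomal proteins. That of mitochondrially encoded genes was -0.92. The lengths of SEC61G, SNRPC, CWC15 and SLC7A3 were 414, 753, 1183 and 2258 bases. With the trend removed SNRPC (log2 fold change 1.89), SLC7A3 (1.24) and SEC61G (1.06) still passed and CWC15 (1.00, edgeR adjusted p = 0.0831) did not.

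**Figure D5:**
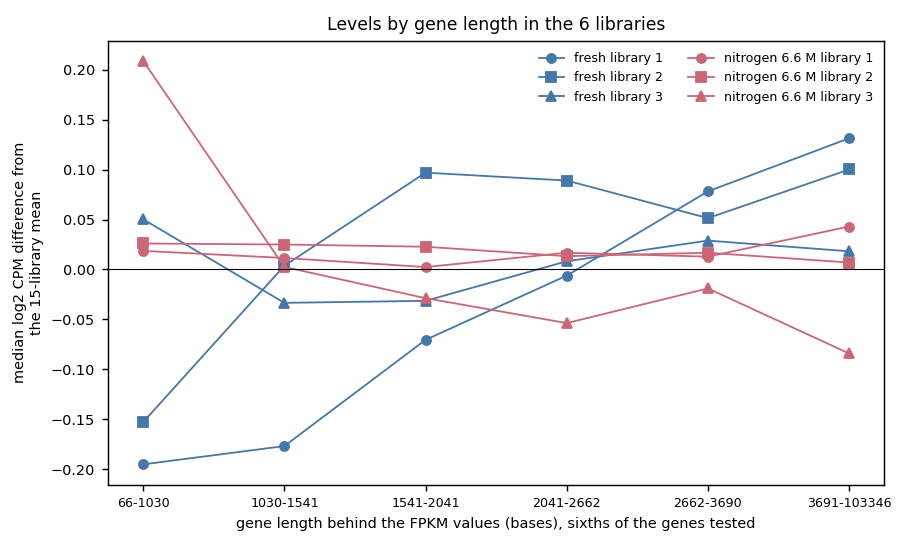
Median difference of each library from the mean of all 15 libraries (y axis, log2 CPM) in sixths of the tested genes by length (x axis, bases). Fresh libraries 1 and 2 start at -0.19 and -0.15 in the shortest genes, nitrogen 6.6 M library 3 starts at 0.21, and the other 3 libraries stay near 0.

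The splicing machinery held 2 of the 4 genes that passed as higher. In this list 80 genes were tested, SNRPC and CWC15 passed, 10 (12.5%, against 4.67% of all genes) were higher at an unadjusted p under 0.05 and none was lower. In all, 46 of 80 (57.5%, against 46.7% of all genes) were above 0, with a median of 0.05. Of the 80, 10 were separate between the groups as higher and 1 as lower, against 4.29% and 4.09% of all genes. SNRNP40, a protein of the U5 particle, was at 57.5, 101 and 73.4 FPKM against 149, 157 and 123 FPKM (log2 fold change 0.93, edgeR adjusted p = 0.0709). SRSF7, a splicing factor that binds exons, was at 197, 272 and 223 FPKM against 373, 403 and 411 FPKM (0.81, edgeR adjusted p = 0.0709). Groups were separate in both, and SRSF7 passed without fresh library 3 (0.89, edgeR adjusted p = 0.0380). The most abundant members did not follow. MAGOH of the exon junction complex was at 2528, 1370 and 3257 FPKM against 2594, 2457 and 3380 FPKM (0.18). SNRPD3, a core protein of several particles including U1, was at 1902, 2117 and 2215 FPKM against 2634, 1745 and 1841 FPKM (0.00), and SNRPG, also a core protein, had a log2 fold change of 0.12. Both overlapped between the groups.

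SEC61G was the only gene of the early secretory pathway to pass, of 56 tested. The list had 22 members above 0 (39.3%, against 46.7% of all genes) and a median of -0.12. At an unadjusted p under 0.05 it had 2 higher and 2 lower members (3.57% each). Over all genes these shares were 4.67% and 3.57%, so neither stood above that of all genes. SEC11C, a catalytic subunit of the signal peptidase, was at 32.2, 68.0 and 39.2 FPKM against 81.5, 49.5 and 74.1 FPKM, with overlap (log2 fold change 0.62). TMED7, given above, and KDELR1, the receptor that returns proteins to the endoplasmic reticulum, were the lower pair. KDELR1 was high only in fresh library 2, with 8.66, 28.1 and 5.32 FPKM against 8.72, 2.21 and 3.75 FPKM (-1.47). The abundant ARF4 and SSR3 had log2 fold changes of -0.07 and 0.00. In the unfolded protein response, which answers misfolded protein in that compartment, 14 of 35 genes were above 0 and none passed. DDIT3, its death-promoting transcription factor, was at 611, 494 and 544 FPKM against 773, 762 and 684 FPKM (0.43, edgeR adjusted p = 0.575). The chaperone HSP90B1 had -0.17 and the disulfide isomerase PDIA6 -0.13.

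SLC7A3 was the only transport gene to pass, of 24 tested for water, osmolytes, ions and amino acids. Such carriers and channels bear on how a cell meets the osmotic load of a cryoprotectant. Of these 24 genes 8 (33.3%) were above 0, the median was -0.18, and 2 were higher (8.33%, against 4.67% of all genes) and 5 lower (20.8%, against 3.57%) at an unadjusted p under 0.05. Their median length was 2695 bases, against 2041 over all genes. In the sixth of 2662 to 3690 bases the median log2 fold change was -0.07, with 2.35% higher and 3.48% lower. ATP1B3, a beta subunit of the sodium pump, was at 20.7, 23.8 and 4.94 FPKM against 9.69, 6.86 and 7.63 FPKM (log2 fold change -0.92). The groups overlapped, since fresh library 3 was the lowest of the 6, and without that library ATP1B3 passed (-1.36, edgeR adjusted p = 0.0428). The lactate carrier SLC16A1 and the pump subunit ATP1B1 had values of -0.07 and -0.18. SLC7A2, a relative of SLC7A3, had -0.86.

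Meiotic cell cycle genes numbered 55, of which 34 (61.8%) were above 0, with a median of 0.11. None passed, and 5 were higher (9.09%, against 4.67% of all genes) and 3 lower (5.45%, against 3.57%) at an unadjusted p under 0.05. BUB3, a protein of the spindle checkpoint, was at 151, 276 and 156 FPKM against 299, 335 and 352 FPKM (log2 fold change 0.82, edgeR adjusted p = 0.0823). SPC25 of the kinetochore was at 412, 239 and 225 FPKM against 570, 592 and 583 FPKM (1.00, edgeR adjusted p = 0.177). Vitrified libraries were close together in both and above all fresh ones, and SPC25 passed without fresh library 1 (1.37, edgeR adjusted p = 0.0390). CCNB2, a cyclin of the kinase that drives division, was at 107, 187 and 120 FPKM against 201, 218 and 203 FPKM (0.64), while its kinase CDK1 overlapped (0.59). AURKA, a spindle kinase and 1 of the 3 most abundant members, had 0.38 (SE 0.23). The anaphase-promoting subunit CDC23 and the phosphatase scaffold PPP2R1A were among the lower members, with -0.88 and -0.84. In the list for spindle, tubulin and actin cortex, 25 of 48 were above 0 and none passed. NUSAP1, which bundles spindle microtubules, was at 439, 445 and 355 FPKM against 823, 814 and 732 FPKM (0.96, edgeR adjusted p = 0.0738), with the groups far apart.

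Oocyte-secreted, zona and maternal-effect genes showed no passing member among 32 tested, with 18 above 0 and a median of 0.07. ZP2, a glycoprotein of the zona pellucida, was at 788, 1382 and 867 FPKM against 1209, 1349 and 984 FPKM (log2 fold change 0.28, SE 0.21). KPNA7, the importin of the early embryo, was at 750, 1390 and 805 FPKM against 1027, 710 and 564 FPKM (-0.30, SE 0.25). Both overlapped, and fresh library 2, with the largest TMM factor of the 6 (1.22), was the highest in both in FPKM. UCHL1, LHX8 and TDRKH each had 0.59 and an unadjusted p under 0.05. Messages for storage, translational control and decay of maternal mRNA were above 0 in 29 of 74 (39.2%), with a median of -0.11, and none passed. EIF4E, the cap-binding factor, was at 664, 427 and 1168 FPKM against 577, 1274 and 1893 FPKM and varied widely in both groups (0.66, SE 0.41). CPEB3, which binds polyadenylation elements in stored messages, was at 21.0, 26 and 19.2 FPKM against 15.4, 13.2 and 16.5 FPKM (-0.52, edgeR adjusted p = 0.377).

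Stress-related lists held no passing gene. Among antioxidant genes 21 of 29 (72.4%) were above 0, with a median of 0.14, and PRDX2 was the only member with an unadjusted p under 0.05. GSTM3, a glutathione transferase, was at 1134, 695 and 2278 FPKM against 1688, 1775 and 1952 FPKM, and PRDX1 at 542, 942 and 503 FPKM against 797, 734 and 672 FPKM. The fresh libraries spanned the vitrified range in both. Heat shock proteins and chaperones were above 0 in 22 of 45, with a median of -0.02. HSPE1, the mitochondrial co-chaperonin, was at 883, 854 and 740 FPKM against 969, 1136 and 1150 FPKM (log2 fold change 0.42, edgeR adjusted p = 0.550), and HSP90AA1 had -0.12. Apoptosis regulators were above 0 in 12 of 27. PDCD5 was at 614, 662 and 525 FPKM against 1055, 998 and 1420 FPKM (0.97, edgeR adjusted p = 0.128), with no overlap, and the executioner caspase CASP6 at 911, 1040 and 1239 FPKM against 1103, 1064 and 1052 FPKM (0.01). Immediate early and stress response genes were above 0 in 8 of 20, with a median of -0.23, and none had an unadjusted p under 0.05. Autophagy genes were above 0 in 15 of 34, with SQSTM1 at -0.15.

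Proteasome genes had 28 of 45 (62.2%) above 0, a median of 0.12, and 8 higher members (17.8%, against 4.67% of all genes) and 1 lower (2.22%, against 3.57%) at an unadjusted p under 0.05. Their median length was 1118 bases, against 2041 over all genes. In the sixths of 66 to 1030 and 1030 to 1541 bases, 11.1% and 7.25% of genes were higher. PSMB3 was at 150, 248 and 234 FPKM against 307, 346 and 466 FPKM (log2 fold change 0.85, edgeR adjusted p = 0.232), and the most abundant member, PSMA5, overlapped (0.12). In carbohydrate metabolism 19 of 36 were above 0. LDHC, the lactate dehydrogenase of germ cells, was at 56.0, 92.4 and 76.9 FPKM against 134, 116 and 183 FPKM (0.97, edgeR adjusted p = 0.112), separate between the groups. Citrate synthase, CS, spanned 385 to 842 FPKM in fresh and 451 to 906 FPKM in nitrogen 6.6 M libraries (0.30). Lipid genes were above 0 in 18 of 38. NPC2, which carries cholesterol out of lysosomes, was at 12.5, 19.5 and 16.2 FPKM against 8.85, 5.20 and 9.09 FPKM (-1.02, edgeR adjusted p = 0.253), and PLIN2, a coat protein of lipid droplets, overlapped (0.44).

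DNA methylation and histone modification genes were above 0 in 19 of 56 (33.9%), with a median of -0.18, and 1 was higher (1.79%) and 4 lower (7.14%) at an unadjusted p under 0.05, against 4.67% and 3.57% of all genes. Their median length was 3013 bases, against 2041 over all genes. In the sixth of 2662 to 3690 bases the median log2 fold change was -0.07, with 2.35% higher and 3.48% lower. The maintenance factor UHRF1 was at 405, 582 and 374 FPKM against 493, 363 and 306 FPKM (log2 fold change -0.18). The methyltransferase DNMT3A was at 3.90, 3.38 and 4.55 FPKM against 3.32, 1.86 and 2.25 FPKM (-0.74, edgeR adjusted p = 0.600). UHRF1 overlapped, and DNMT3A had a narrow gap at low levels. DNA repair genes were above 0 in 33 of 62, with PCNA at -0.10. Histone genes were above 0 in 10 of 16, with the oocyte linker histone H1FOO at -0.02, and calcium and egg activation genes in 14 of 28. Cytosolic ribosomal proteins were above 0 in 20 of 42, with RPS27A at 0.19, RPS2 at -0.36 and RPS12 at -0.78. Ribosomal proteins and histones have many near-copies, and their counts are uncertain for that reason.

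The number of genes at 1 FPKM or more was 8554, 9743 and 8422 in fresh and 9019, 8677 and 8734 in nitrogen 6.6 M libraries. Fresh library 2 was the highest and fresh library 3 the lowest, so the vitrified group lay inside the fresh range. The difference of -96.3 gave p = 1 in the same two-sided exact permutation test, and was 322 without fresh library 2.

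The nitrogen 6.6 M group was set against nitrogen 5.6 M, where only the concentration differs in the labels, and against helium 6.6 M, where only the coolant does. These contrasts use the same nitrogen 6.6 M libraries as the comparison with fresh, so the 3 are not independent. Against nitrogen 5.6 M edgeR called 0 of 8441 genes (0%), with 166 (1.97%) at an unadjusted p under 0.05, 85 higher (1.01%) and 81 lower (0.96%), and DESeq2 called 0. The smallest edgeR adjusted p was 0.901, for INTU, a gene of cilium assembly, with 2.76 FPKM at 6.6 M and 0.764 ± 0.266 FPKM at 5.6 M (SD, n = 3). SNRPC stood at 411 ± 54.0 FPKM, CWC15 at 428 ± 47.5, SEC61G at 1137 ± 170 and SLC7A3 at 272 ± 53.4 in nitrogen 5.6 M libraries (SD, n = 3). The log2 differences from nitrogen 6.6 M were 0.04, 0.06, 0.09 and 0.15 (SE 0.20, 0.19, 0.23 and 0.21), smaller than their standard errors. ROBO1 was at 6.76 ± 0.692 FPKM with 5.6 M, between fresh and 6.6 M (log2 difference -0.62, SE 0.19, edgeR adjusted p = 1.00).

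Against helium 6.6 M edgeR called 0 of 8441 genes (0%), with 678 (8.03%) at an unadjusted p under 0.05, 361 higher (4.28%) and 317 lower (3.76%), and DESeq2 called 8. Of the 4 genes that passed as higher than fresh, SEC61G had the largest log2 difference from helium, 0.89 (SE 0.23, edgeR adjusted p = 0.474), with 717 ± 136 FPKM in helium libraries (SD, n = 3). SNRPC, SLC7A3 and CWC15 differed by 0.30, 0.14 and 0.16 (SE 0.20, 0.21 and 0.19). The smallest adjusted p was that of 7SK, a small RNA that holds the elongation kinase P-TEFb, with 49.0 FPKM in nitrogen and 13.8 ± 3.82 in helium libraries (1.91, edgeR adjusted p = 0.0930) and 44.0 in fresh ones. Raw counts of 7SK were low, at 42, 34 and 107 in nitrogen 6.6 M and 32, 25 and 24 in fresh libraries. How well poly(A)-primed libraries capture this small RNA was not tested. NDUFA1 of complex I was at 211 FPKM with nitrogen and 96.9 ± 8.93 with helium (1.24, edgeR adjusted p = 0.119), and at 126 ± 24.5 in fresh libraries. PLAUR, the urokinase receptor, was lower with nitrogen, at 107 against 206 ± 40.1 FPKM (-0.83, edgeR adjusted p = 0.119). In fresh libraries PLAUR was at 161 ± 29.5 FPKM, between the 2 groups, and DESeq2 called it lower with nitrogen than in fresh (-0.56, DESeq2 adjusted p = 0.0475). Without nitrogen 6.6 M library 3, edgeR called 1 gene. With no filter on low counts, edgeR's calls included cumulus and granulosa markers, all lower with nitrogen. They were CYP11A1 (-6.31), TIMP1 (-5.66), TNFAIP6 (-5.14) and PTX3 (-2.50). CYP11A1 was at 0 in all nitrogen 6.6 M and fresh libraries, and TIMP1 and TNFAIP6 had 5 counts or fewer in each. The 3 most abundant markers of that list went the other way. With the filter, STAR, HAS2 and PTGS2 had log2 differences from helium of 0.05, 0.26 and 0.32, and none passed. TNFAIP6 also passed with the replicate block (-5.01, edgeR adjusted p = 0.00178). Whether the groups differed in cumulus cell RNA was not tested. All helium 6.6 M libraries held 6906940 to 7330690 counts, like nitrogen 6.6 M library 3 and unlike libraries 1 and 2. With all libraries thinned to the shallowest, edgeR again called 0 genes, with 542 at an unadjusted p under 0.05, and the log2 differences were 1.98 for 7SK, 1.38 for NDUFA1 and -0.90 for PLAUR.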

How the data were processed

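RNA sequencing gave 15 libraries, and the sample labels put them in 5 groups of 3. The submitters' processing notes name UMD3.1 as the build and HISAT2 2.0.4 and StringTie 1.3.0 as tools, without their roles. Whether counting used the strand, and how reads were filtered or shared between copies, is not given in the sources used here. Per the file headers and the values, the authors' counts are unscaled whole numbers for each gene in each library. The same deposited table gives FPKM, per the file headers. The count over the product of gene length and library total matched FPKM within 0.0674% in 180473 values above 0, and gene lengths here come from that relation. The table held 24616 genes, 6062 without a symbol and 16294 with any count.

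Genes passing filterByExpr for the 5 groups (8441) were scaled by TMM and fitted with edgeR 4.0.16 (R 4.3.3) as 1 robust quasi-likelihood model of all 15 libraries, without a replicate block. Contrasts were adjusted by Benjamini-Hochberg over all 8441 genes, with a threshold of 0.05. Standard errors come from the same fit. The script was tested on simulated data. Mitochondrial shares of counts, and how many genes reached 1 FPKM, were compared by two-sided exact permutation tests. Chi-square per degree of freedom between libraries of a group was 9.43 to 31.5, far from that of copies.

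Named genes have a symbol, averaged 5 FPKM or more in the higher group and did not overlap between groups. Up to 12 passing genes per direction were taken by fold change, filled to 10 by smallest p. For lists, passing members and the 3 most abundant were eligible, for the other contrasts 3 genes per direction, and also the 10 most abundant genes. Not every eligible gene is described. Of 1501 symbol entries in 28 lists (24 functional, 4 of cell markers), 1294 were in the table. The members and lists were chosen with earlier results of these data known. Alternatives were another scaling, DESeq2 1.42.0, other count filters, the replicate block, the groups alone, thinned counts, each library left out and, chosen after seeing the data, removal of each library's trend with gene length, gene-length groups without each library and a fit of the 8 shallower libraries. Columns of the helium 5.6 M group entered only the shared fit. No sequences are shown, and a few genes are not reported here.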

Additional observations from a re-analysis of the deposited data

How the results depend on the processing

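The number of genes past the threshold between nitrogen 6.6 M and fresh oocytes, 4, was the same with DESeq2's size factors in edgeR and with a filter of 10 counts in 6 libraries. It was 50 with DESeq2's Wald test (43 higher, 7 lower), 60 with no filter on low counts (46 higher, 14 lower) and 6 with all libraries thinned to the shallowest. It was 1 with the 2 groups fitted alone, 1 in the 8 shallower libraries and 3 with the length trend removed. Leaving out libraries gave 1 to 21: 4, 2 and 21 without fresh libraries 1, 2 and 3, and 3, 4 and 1 without nitrogen 6.6 M libraries 1, 2 and 3. Without fresh library 1, 1 of the original 4 genes was among those called. Against nitrogen 5.6 M the count of 0 became 3 with no filter and stayed 0 without any library. Against helium 6.6 M it became 8 with DESeq2, 67 with no filter and 7 with the replicate block, and leaving out libraries gave 0 to 1. The cause of these changes was not tested.

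With the replicate number as a block (the 2 groups alone), 0 genes passed between nitrogen 6.6 M and fresh (374 at an unadjusted p under 0.05), and SNRPC had an edgeR adjusted p of 0.0765. The numbers are not shown to pair the libraries, since deviations from the group means correlated at -0.129, -0.198 and 0.431 and 1 library correlated best with its own number. The mitochondrial difference ran from -2.93 to -0.667 percentage points without each library in turn. That in genes detected ran from -338.5 to 322 without each library in turn, where 322 (without fresh library 2) and 82.3 (at 0.5 FPKM) reversed the sign. Over the 28 lists, with 10 alternatives each, 13 medians moved by more than the spread between libraries. No named gene reversed. Depth limits low genes most, since 3 counts in fresh library 1, the shallowest, stand for 1.87 CPM.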

Other observations

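DESeq2's Wald test called 50 genes between nitrogen 6.6 M and fresh oocytes, including the 4 that edgeR called. Besides genes described above these included CLK1, a kinase that phosphorylates splicing factors (log2 fold change 1.33, DESeq2 adjusted p = 0.00567), DBR1, which opens the lariat of excised introns (0.73, 0.0428 by DESeq2), and the translation-related BTF3L4 (0.96, 0.00222 by DESeq2). Also called were RAD17 of the DNA damage checkpoint (0.62, 0.0285 by DESeq2), TARS, the threonyl-tRNA synthetase (0.78, 0.0426 by DESeq2), and ALDH7A1, an aldehyde dehydrogenase (0.89, 0.00974 by DESeq2). These genes were picked from that list after their values were seen, and none passed edgeR's test with all libraries and the filter on low counts. Without that filter CLK1 (edgeR adjusted p = 0.000417), BTF3L4 (0.0117) and ALDH7A1 (0.0400) passed, and without fresh library 3 CLK1 (0.0338) and BTF3L4 (0.0320) did. A gene without a symbol, ENSBTAG00000001851, had 0 counts in all 3 fresh libraries and 6, 5 and 8 counts in the nitrogen 6.6 M libraries. It was the only gene at 0 in a whole group with 5 or more counts in every library of the other, and such low counts do not show absence from fresh oocytes.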
